A study of Mus musculus with 12 samples.

Results

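The genes described here are 40 genes of the cell cycle and of DNA replication, taken by symbol from a fixed list: 24 act mainly in mitosis and 16 around S phase, the phase in which DNA is copied. Each of the 40 symbols was found once in the gene count table of white adipose tissue, which lists 26639 features, and once in that of cultured adipocytes, which lists 22851. The RNA came from wild-type (WT) mice and from mice in which Fam50a, the gene encoding Xap5, is deleted in mature adipocytes (Adiponectin-cKO, after a gene that these cells express). The tissue groups are white adipose tissue (WAT) of WT mice and of Xap5 Adiponectin-cKO (cKO) mice at postnatal day 42. The culture groups are adipocytes of WT and of knockout (KO) genotype, grown from preadipocytes of newborn white fat and sampled on day 8 of adipogenic induction. Each group has 3 libraries. No label ties a library to its own mouse or dish, and every p-value below therefore speaks only of the spread between these libraries. The series compares the genotypes within tissue and within culture to ask how Xap5 affects adipocyte development and cell death.

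A dividing cell switches on its replication genes at the entry to S phase, largely through E2F transcription factors, and its mitotic genes later, largely through B-Myb, FoxM1 and the MuvB complex. Mature adipocytes are taken to be postmitotic, and in white fat the dividing cells are mostly preadipocytes, endothelial cells and resident or recruited immune cells. Proliferation of macrophages within inflamed fat is a known example. The deletion leaves the gene in place in cells that do not make adiponectin, so a bulk library mixes deleted and undeleted cells. In such libraries fewer cells of a type and less RNA per cell cannot be told apart.

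Sequence elements in promoter windows differed in frequency between the mitotic and the replication genes, though not in every gene. The windows of 6 genes are printed here: Ccnb1 and Top2a as the mitotic genes with the smallest p in WAT, Rrm2 and Mcm3 as the S-phase genes with the smallest p among those with a window, and Cdc20 and Mcm6 for the elements they hold. Each window runs 5′ to 3′ on the gene's strand from 250 bases before to 50 bases after the RefSeq start on GRCm38.p6. Capitals mark matches, on either strand, to 3 kinds of element. The first is the cell cycle genes homology region (CHR), searched as TTTGAA or TTCGAA. The second is the CCAAT box. The third is an E2F-type element, searched as TTCCCGC or TTGGCGC, whose reverse complement can overlap a CCAAT box.
Ccnb1, chr13:100786437-100786736, minus strand: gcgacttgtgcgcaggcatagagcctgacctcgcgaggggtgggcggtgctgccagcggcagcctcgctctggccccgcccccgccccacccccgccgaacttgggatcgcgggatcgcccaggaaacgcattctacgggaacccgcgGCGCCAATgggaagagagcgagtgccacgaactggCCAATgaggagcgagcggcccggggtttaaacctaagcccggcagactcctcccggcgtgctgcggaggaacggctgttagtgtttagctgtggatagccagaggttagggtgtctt
Top2a, chr11:99024140-99024439, minus strand: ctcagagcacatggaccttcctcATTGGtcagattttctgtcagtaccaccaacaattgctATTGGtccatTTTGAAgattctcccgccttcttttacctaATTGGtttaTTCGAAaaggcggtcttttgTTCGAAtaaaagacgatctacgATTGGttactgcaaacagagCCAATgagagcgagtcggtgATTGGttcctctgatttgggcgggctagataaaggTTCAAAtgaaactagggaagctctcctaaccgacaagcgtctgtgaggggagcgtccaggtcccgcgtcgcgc
Cdc20, chr4:118437294-118437593, minus strand: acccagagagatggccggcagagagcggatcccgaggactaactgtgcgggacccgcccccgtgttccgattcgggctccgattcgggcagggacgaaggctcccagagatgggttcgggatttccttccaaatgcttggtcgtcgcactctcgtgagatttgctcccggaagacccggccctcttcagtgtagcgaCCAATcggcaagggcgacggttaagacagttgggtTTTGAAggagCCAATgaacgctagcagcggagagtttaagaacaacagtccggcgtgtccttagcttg
Rrm2, chr12:24708004-24708303, plus strand: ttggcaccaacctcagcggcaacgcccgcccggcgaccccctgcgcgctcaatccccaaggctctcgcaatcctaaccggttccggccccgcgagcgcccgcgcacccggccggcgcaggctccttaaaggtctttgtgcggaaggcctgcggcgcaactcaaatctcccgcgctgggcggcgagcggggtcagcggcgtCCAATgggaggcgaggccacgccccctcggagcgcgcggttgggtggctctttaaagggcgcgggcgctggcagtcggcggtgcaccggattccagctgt
Mcm3, chr1:20820263-20820562, minus strand: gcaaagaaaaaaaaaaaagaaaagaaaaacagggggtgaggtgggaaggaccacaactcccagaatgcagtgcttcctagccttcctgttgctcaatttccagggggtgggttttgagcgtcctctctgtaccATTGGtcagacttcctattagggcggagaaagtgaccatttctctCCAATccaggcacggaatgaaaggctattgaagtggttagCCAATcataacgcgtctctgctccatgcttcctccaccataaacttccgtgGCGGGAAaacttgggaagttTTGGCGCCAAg
Mcm6, chr1:128359656-128359955, minus strand: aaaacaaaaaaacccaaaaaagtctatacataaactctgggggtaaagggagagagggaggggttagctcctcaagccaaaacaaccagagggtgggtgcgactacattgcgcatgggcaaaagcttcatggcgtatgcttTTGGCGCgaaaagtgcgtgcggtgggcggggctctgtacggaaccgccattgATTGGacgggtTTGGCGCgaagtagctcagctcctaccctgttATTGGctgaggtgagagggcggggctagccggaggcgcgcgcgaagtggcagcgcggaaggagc

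Of the 40 genes 33 matched a RefSeq promoter window by symbol, 20 mitotic and 13 S-phase genes with 35 windows between them. The CHR stood in 17 of 21 mitotic windows (81.0%) and in 3 of 14 S-phase windows (21.4%), beside 19.2% of all 32851 windows and 14.4% of the windows of genes tested in WAT. The CCAAT box stood in 19 of 21 mitotic windows (90.5%) and in 10 of 14 S-phase windows (71.4%), beside 37.4% of all windows. The E2F-type element went the other way, with 4 of 21 mitotic windows (19.0%) and 7 of 14 S-phase windows (50%), beside 6.81% of all windows and 11.2% of the windows of genes tested in WAT. At least 2 E2F-type matches were found in 4 S-phase windows and in 0 mitotic ones. The printed windows show the range: Top2a holds 4 CHR matches and 6 CCAAT boxes, Cdc20 holds 1 CHR match just upstream of its nearest CCAAT box, and Mcm6 holds 2 E2F-type matches. In Mcm3, 2 of the 3 E2F-type matches are the overlapping strands of 1 palindromic site. In Ccnb1 the single E2F-type match overlaps a CCAAT box and no CHR match was found, and Rrm2 holds a CCAAT box only. These are matches of letters in a fixed window and say nothing of which factor was bound. The windows of Mcm7 and Prc1 were counted apart, since each of these genes has 2. Counted by gene, the CHR stood in 16 of 20 mitotic and 3 of 13 S-phase genes, and the E2F-type element in 4 of 20 and 6 of 13. The genes without a window in the table were Ccna2, Aurkb, Kif20a, Tpx2, Mcm4, Gins2 and Ccne2.

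**Figure D1:**
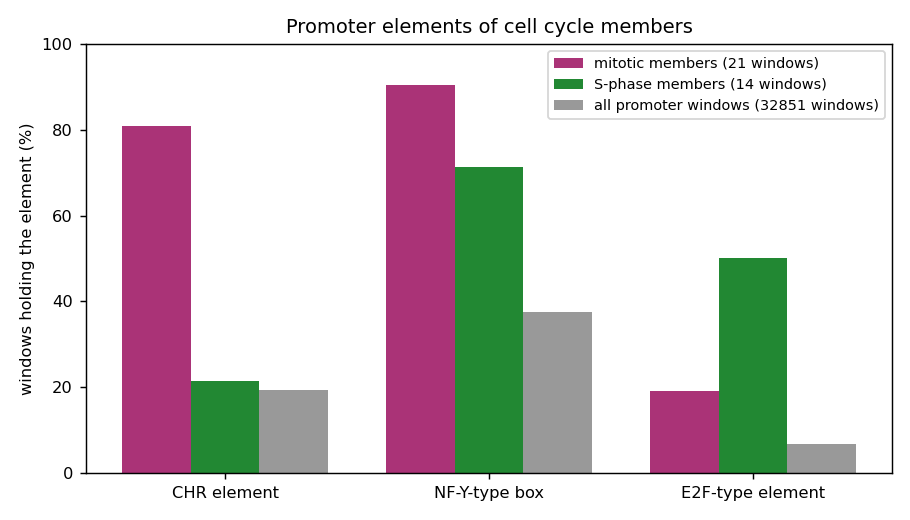
Share of promoter windows (vertical axis, percent) that hold each of 3 sequence elements, for mitotic members, S-phase members and all windows of the RefSeq table. The CHR element is in 81.0% of mitotic and 21.4% of S-phase windows, and the E2F-type element in 19.0% and 50%.

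The library totals lay between 28844370 and 33997204 reads assigned to genes in WAT and between 10863158 and 21773610 in culture. In WAT the scaling factors of the trimmed mean of M-values (TMM) ran from 0.78 to 0.80 in WT and from 1.23 to 1.30 in cKO, so the composition of the libraries differed between the genotypes. Levels are given below as CPM, the counts divided by the scaled library total. Fam50a had 35.3, 32.5 and 36.5 CPM in the WT tissue libraries and 23.3, 16.8 and 28.9 CPM in cKO, a log2 change of -0.60 (SE 0.20, edgeR adjusted p 0.039), which turned to 0.089 when libraries were scaled by their totals alone. In culture its log2 change was -0.26 (SE 0.12, edgeR adjusted p 0.134). The scaling matters for every WAT value: with totals alone the median log2 change of all genes tested moved from 0.12 to 0.80, and that of the 40 cell cycle genes from 1.98 to 2.67.

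Nearly all these genes had a higher level, relative to the scaled library, in WAT of cKO mice than in WAT of WT mice. At an adjusted p under 0.05 (edgeR quasi-likelihood test, Benjamini-Hochberg over 16293 genes), 36 of the 40 were higher in cKO and 0 were lower, where 28.2% of all genes tested were called higher and 24.2% lower. All 24 mitotic genes were higher, with a median log2 change of 2.58. Of the 16 S-phase genes 12 were higher, with a median over the 16 of 1.25, and the median of all genes tested was 0.12. At least a 2-fold rise was called for 32 of the 40, and for 19.4% of all genes. In 37 of the 40 each cKO library lay above each WT library, as in 35.1% of all genes. For 5 of the 40, Bub1, Kif11, Cenpe, Ncapg and Ccne2, a WT library lay below the level the count filter asks for, so that they were tested because of their cKO libraries. Of the remaining 35 genes 32 were called higher.

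**Figure D2:**
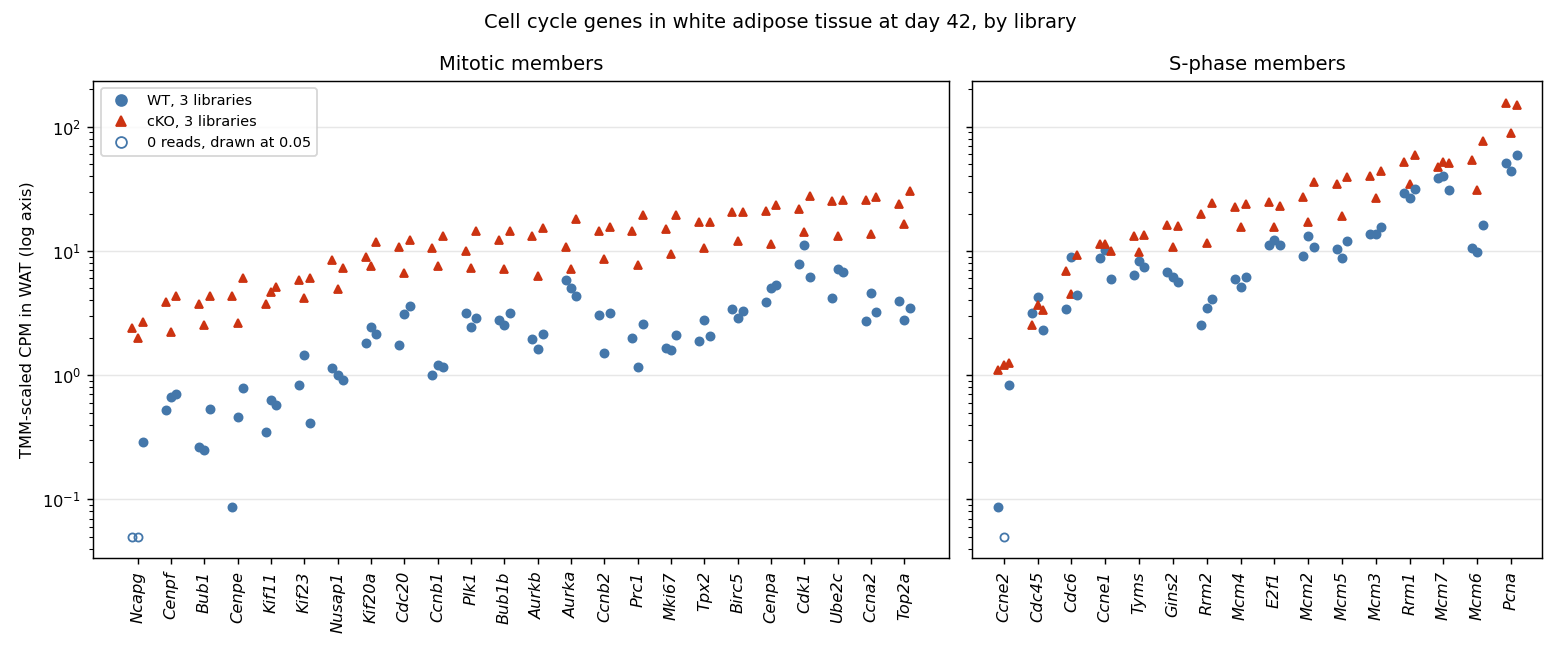
Level of each of the 40 genes (TMM-scaled CPM, log axis) in each WAT library, mitotic genes on the left and S-phase genes on the right, ordered within each panel by the cKO mean. WT libraries are circles, cKO libraries are triangles, and open circles at 0.05 stand for libraries with 0 reads. The triangles stand clear of the circles in 37 of the 40 genes, the exceptions being Cdc45, Cdc6 and Ccne1.

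Among the cyclins and kinases that drive entry into mitosis, Ccnb1, which encodes cyclin B1, stood at 1.00, 1.21 and 1.16 CPM in the WT libraries, in replicate order, and at 10.6, 7.57 and 13.1 CPM in the cKO libraries. The groups were far apart relative to the spread within each, and the fitted rise was 9.23-fold (edgeR adjusted p 0.000571). Ccnb2, cyclin B2, had 3.05, 1.5 and 3.14 CPM in WT and 14.5, 8.57 and 15.5 CPM in cKO, a log2 change of 2.33 (SE 0.37). Ccna2, cyclin A2, which serves both S phase and mitotic entry, had 2.74, 4.55 and 3.22 CPM in WT and 25.6, 13.7 and 27.0 CPM in cKO, a log2 change of 2.65 (SE 0.33). For both cyclins the lowest cKO library, replicate 2, still exceeded the highest WT library more than the WT libraries differed from each other. Their kinase Cdk1 had 7.88, 11.2 and 6.20 CPM in WT and 21.9, 14.1 and 27.6 CPM in cKO. Its change was smaller, with a log2 value of 1.33 (SE 0.31, edgeR adjusted p 0.0104), and cKO replicate 2 stood only slightly above WT replicate 2. The Polo-like kinase Plk1 rose by 1.90 on the log2 scale (SE 0.30), from a mean of 2.83 ± 0.384 CPM (SD, n = 3) to 10.6 ± 3.63 CPM (SD, n = 3). The Aurora kinases differed in size of change: Aurkb, the kinase of the chromosomal passenger complex, had a log2 change of 2.60 (SE 0.37), and Aurka, the spindle pole kinase, one of 1.24 (SE 0.35, edgeR adjusted p 0.0219). Aurka had 5.88, 5.01 and 4.34 CPM in WT and 10.8, 7.10 and 18.1 CPM in cKO, the lowest rise among the mitotic genes. Its call was lost without WT replicate 2 (edgeR adjusted p 0.073) and without WT replicate 3 (edgeR adjusted p 0.074).

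Chromosome structure and spindle genes rose as well. Mki67, the Ki-67 protein that coats mitotic chromosomes and is the usual stain for cycling cells, had 1.66, 1.59 and 2.11 CPM in WT and 14.9, 9.39 and 19.6 CPM in cKO. That is a log2 change of 3.03 (SE 0.32, edgeR adjusted p 0.000737), with no overlap between the groups. Top2a, the topoisomerase that untangles replicated chromosomes, had 3.96, 2.80 and 3.47 CPM in WT and 23.7, 16.4 and 30.4 CPM in cKO, again without overlap. The condensin subunit gene Ncapg had 0 reads in WT replicates 1 and 2 and 7 reads in replicate 3, against 101, 81 and 119 reads in the cKO libraries. At 3 reads, the most that a count of 0 leaves room for, WT replicates 1 and 2 would have held 0.131 and 0.125 CPM, and the cKO libraries held 2.40, 1.99 and 2.70 CPM. Its fitted log2 change of 4.54 had the widest error of the mitotic genes (SE 1.05) and depends on how near-zero counts are handled: without WT replicate 3, the only WT library with reads, the fit gave 9.36, which is no bound. Nusap1 and Prc1, which bundle spindle microtubules, rose by 2.76 (SE 0.31) and 2.85 (SE 0.44) on the log2 scale. Tpx2, a spindle assembly factor that activates Aurora A, rose from 2.23 ± 0.463 CPM (SD, n = 3) to 14.9 ± 3.73 CPM (SD, n = 3).

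The mitotic kinesins followed the same direction. Kif20a and Kif23, which act in the central spindle and in cytokinesis, changed by 2.14 (SE 0.27) and 2.56 (SE 0.48) on the log2 scale. Kif11, the kinesin that separates the spindle poles, had 0.348, 0.626 and 0.579 CPM in WT and 3.76, 4.69 and 5.10 CPM in cKO, a log2 change of 3.11 (SE 0.37). Kif11 is 1 of the 4 genes in which cKO replicate 1, not replicate 2, was the lowest of its group. The WAT table also lists a second copy of this symbol, marked as copy 2, with 8, 15 and 8 reads in WT and 92, 11 and 205 reads in cKO. The copy's libraries overlapped between the genotypes and it did not pass the test (log2 change 2.44, SE 0.93, edgeR adjusted p 0.0605). How reads were divided between the copies is not given in the sources used here, so the value of Kif11 is uncertain to that extent.

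Kinetochore and checkpoint genes included some of the least abundant members. Bub1, a checkpoint kinase, had 0.261, 0.250 and 0.537 CPM in WT and 3.76, 2.53 and 4.35 CPM in cKO, and its partner Bub1b had 2.79, 2.54 and 3.18 CPM in WT and 12.1, 7.10 and 14.6 CPM in cKO. Both were clear of overlap, with log2 changes of 3.33 (SE 0.47) and 1.99 (SE 0.31). The kinetochore motor Cenpe had 0.087, 0.459 and 0.785 CPM in WT and 4.31, 2.63 and 6.09 CPM in cKO. Its change of 3.27 carried an SE of 0.70, and its lowest WT library held 2 reads. Cenpf, a large kinetochore protein gene, changed by 2.46 (SE 0.40), and Cenpa, the centromeric histone gene, by 1.98 (SE 0.30). Birc5, which encodes survivin of the chromosomal passenger complex, rose 5.54-fold, from 3.19 ± 0.277 CPM (SD, n = 3) to 17.7 ± 5.01 CPM (SD, n = 3). The genes of the anaphase-promoting complex pathway were nearer the lower end: Ube2c, its ubiquitin-conjugating enzyme, changed by 1.83 (SE 0.33), and Cdc20, its activator, by 1.80 (SE 0.36). The adjusted p of the 24 mitotic genes in edgeR ran from 0.000571 for Ccnb1 to 0.0219 for Aurka.

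S-phase genes moved less, and unevenly. The helicase subunits Mcm2 to Mcm7, which unwind DNA as a single ring, were all called higher in cKO, but with log2 changes from 0.46 for Mcm7 to 2.15 for Mcm6. Mcm6 had 10.5, 9.72 and 16.1 CPM in WT and 54.2, 30.7 and 76.4 CPM in cKO, so that its lowest cKO library was well above its highest WT library. Mcm7 had 38.5, 40.4 and 30.8 CPM in WT and 47.1, 52.2 and 51.5 CPM in cKO, a 1.38-fold difference (SE 0.14 on the log2 scale, edgeR adjusted p 0.0264). The Mcm7 groups do not overlap but the gap between them is narrow, and the call was lost when any library other than WT replicate 2 was left out (edgeR adjusted p 0.052 to 0.084). Mcm3 had 13.7, 13.6 and 15.5 CPM in WT and 40.4, 26.9 and 43.7 CPM in cKO, a log2 change of 1.37 (SE 0.20). Mcm4 had 5.97, 5.09 and 6.20 CPM in WT and 22.7, 15.7 and 24 CPM in cKO, a log2 change of 1.85 (SE 0.21), the smallest p of the S-phase genes. Mcm2 and Mcm5 lay between, with log2 changes of 1.29 (SE 0.29) and 1.58 (SE 0.28). The span of the Mcm7 gene overlaps that of Ap4m1 in the RefSeq annotation, by a stretch whose extent was not measured. Because the strand setting of the counting is not given, reads in that stretch cannot be told apart.

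The genes of deoxynucleotide supply diverged from each other. Rrm2, the cell-cycle-regulated small subunit of ribonucleotide reductase, had 2.53, 3.46 and 4.13 CPM in WT and 19.7, 11.6 and 24.5 CPM in cKO, a log2 change of 2.46 (SE 0.33) and the largest of the S-phase genes. Its large subunit Rrm1, which is long-lived as a protein, had 29.2, 26.6 and 31.4 CPM in WT and 52.0, 34.4 and 59.7 CPM in cKO, a log2 change of 0.74 (SE 0.21, edgeR adjusted p 0.0202). The Rrm1 groups are separated by the small gap between WT replicate 3 and cKO replicate 2. Tyms, thymidylate synthase, changed by 0.71 (SE 0.21, edgeR adjusted p 0.0238), from 7.38 ± 0.976 CPM (SD, n = 3) to 12.1 ± 2.00 CPM (SD, n = 3). Rrm1 lost its call without WT replicate 1 or 2 or cKO replicate 1 or 3 (edgeR adjusted p 0.055 to 0.077), and Tyms without WT replicate 1 or 3 or cKO replicate 1 or 3 (edgeR adjusted p 0.062 to 0.089). With the trend of transcript length and GC content removed, the log2 change of Rrm1 fell to 0.18.

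At the replication fork, Pcna, the sliding clamp of the polymerases, had 50.7, 44.4 and 58.7 CPM in WT and 156, 89.4 and 150 CPM in cKO, a log2 change of 1.36 (SE 0.23). Gins2, a subunit of the helicase complex that also holds the Mcm ring and Cdc45, changed by 1.21 (SE 0.22). Cdc45 itself showed no such difference: it had 3.14, 4.26 and 2.31 CPM in WT and 2.55, 3.66 and 3.33 CPM in cKO, a log2 change of -0.03 (SE 0.33, edgeR adjusted p 0.954). A second copy of the Cdc45 symbol, also listed in the WAT table, had a log2 change of -0.19 (edgeR adjusted p 0.521). The interval of about 2 SE around the Cdc45 estimate still includes a change as large as that of Mcm7. Cdc6, which loads the helicase at origins, had 3.40, 9.01 and 4.38 CPM in WT and 6.86, 4.47 and 9.27 CPM in cKO. The Cdc6 groups overlapped, and the difference was smaller than the spread between replicates (log2 change 0.29, SE 0.43, edgeR adjusted p 0.589). E2f1, the transcription factor that drives replication genes, had 11.2, 12.1 and 11.2 CPM in WT and 24.8, 15.5 and 22.8 CPM in cKO, a log2 change of 0.87 (SE 0.20, edgeR adjusted p 0.0099). The E-type cyclins, which start S phase with Cdk2, did not pass the main test. Ccne1 had 8.80, 10.1 and 5.91 CPM in WT and 11.3, 11.3 and 10.0 CPM in cKO (log2 change 0.40, SE 0.23, edgeR adjusted p 0.189). Ccne1 did pass with totals alone (1.08, edgeR adjusted p 0.00558) and with the trend of length and GC content removed (0.79, edgeR adjusted p 0.029). Ccne2 had 2, 0 and 20 reads in WT and 46, 49 and 55 reads in cKO, and its spread in WT left a log2 change of 1.94 with an SE of 1.06 (edgeR adjusted p 0.161). Without WT replicate 3, which held 20 of the WT reads, Ccne2 passed (edgeR adjusted p 0.0138). Ccne2 also passed with limma voom (3.25, voom adjusted p 0.032) and in 1 fit over all 4 groups (1.97, edgeR adjusted p 0.021).

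**Figure D3:**
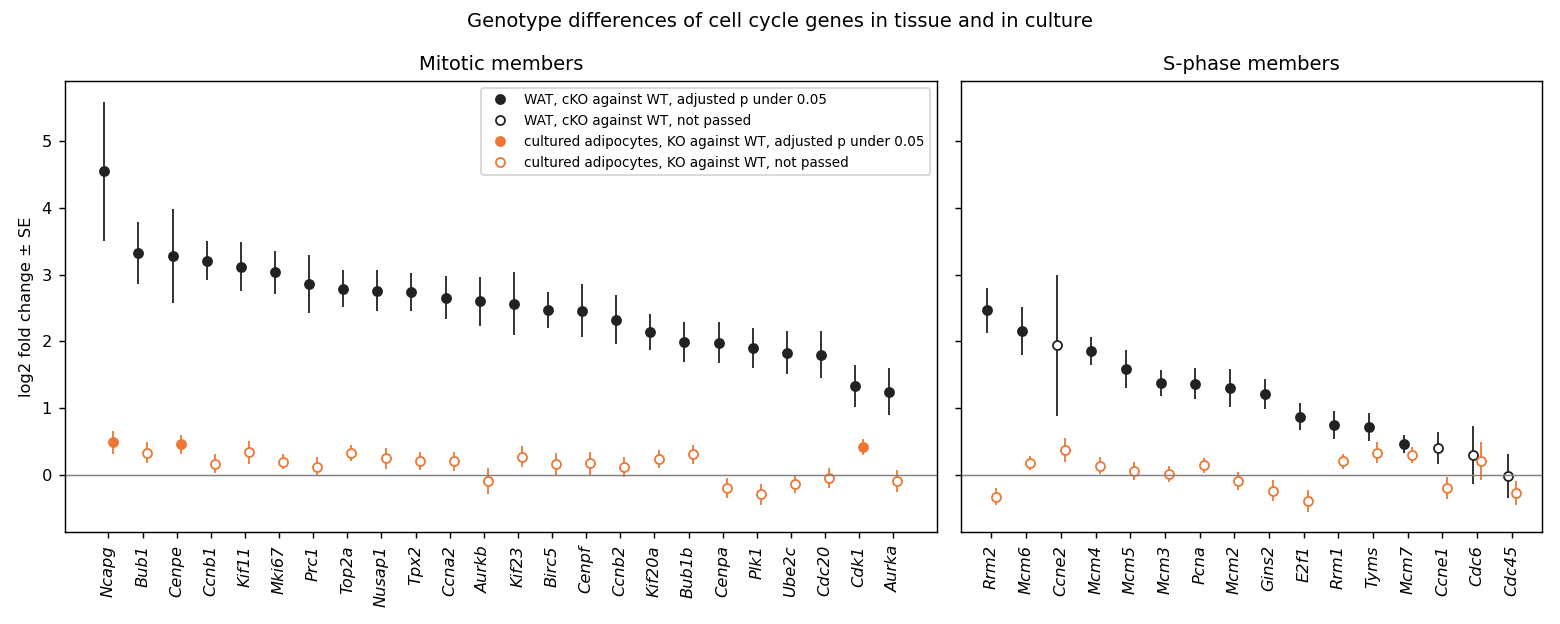
log2 fold change ± SE of each gene in WAT (black, cKO against WT) and in cultured adipocytes (orange, KO against WT), ordered by the WAT change, with filled points at an edgeR adjusted p under 0.05 and open points otherwise. The black points of the mitotic genes run from 4.54 to 1.24, and those of the S-phase genes from 2.46 to -0.03, while the orange points lie between -0.39 and 0.49.

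Mitotic and S-phase genes thus differed in how far they moved in WAT. Of the 24 mitotic genes 14 had a log2 change above that of Rrm2, the highest S-phase gene. Among these were Bub1, Kif11, Cenpe and Ncapg, which were tested because of their cKO libraries. Of the 16 S-phase genes 8 had a log2 change above that of Aurka, the lowest mitotic gene. The 2 sets also began at different levels. Per kilobase of transcript, the median level in WT WAT was 0.619 CPM for the mitotic genes and 2.93 CPM for the S-phase genes, and in cKO WAT 3.99 and 7.67 CPM. Pcna, at 33.8 CPM per kilobase in WT WAT, was the highest of the 40, followed by Mcm7 at 12.3 and Rrm1 at 5.31, and Ncapg at 0.024 was the lowest. Mcm7 and Rrm1 were among those with small changes and Ncapg had the largest, but Pcna changed by 1.36 on the log2 scale. The WT level is also the base of the fold change, so level and change are not independent measures. The ratio of the summed mitotic to the summed S-phase level does not depend on how libraries are scaled against each other. It was 0.267, 0.295 and 0.277 in the WT tissue libraries and 0.580, 0.536 and 0.622 in the cKO ones, so the mitotic share was higher in each cKO library than in each WT library.

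The cKO libraries were unequal. Summed over the 40 genes, the WT libraries held 266.5, 278.8 and 285.2 CPM, and the cKO libraries 837.9, 543.9 and 944.2 CPM. Replicate 2 was the lowest cKO library in 35 of the 40 genes, and replicate 3 the highest in 32. The sums of the macrophage, preadipocyte and fibroblast, mature adipocyte, and neutrophil and mast cell markers followed the same order or its reverse. The sum of 20 macrophage markers was between 2788 and 3266 CPM in WT and was 9511, 7262 and 10149 CPM in cKO replicates 1 to 3. Without Lpl and Cd9, which adipocytes also express, it was between 677 and 1029 CPM in WT and 6643, 3297 and 6982 CPM in cKO. The sum of 15 preadipocyte and fibroblast markers was between 3283 and 4303 CPM in WT and 12367, 7973 and 12695 CPM in cKO, and that of 15 mature adipocyte markers between 72967 and 75503 CPM in WT and 12628, 23913 and 9073 CPM in cKO. In each of these sums the cKO libraries lay apart from the WT libraries, and replicate 2 was the cKO library nearest to them. The endothelial sum did not follow this order, with 1230 to 1731 CPM in WT and 1046, 930.3 and 692.8 CPM in cKO, and the T, B and NK cell sum overlapped, with 36.1 to 63.9 CPM in WT and 54.5, 30.9 and 32.7 CPM in cKO. The neutrophil and mast cell sum was 32.6 to 37.2 CPM in WT and 68.3, 43.5 and 128.1 CPM in cKO. That is the order of the 40 genes, again with replicate 2 nearest to the WT libraries. By gene, 17 of 20 macrophage and 10 of 15 preadipocyte and fibroblast markers were higher in cKO and 0 of either lower, 14 of 15 mature adipocyte markers were lower, and of 10 endothelial markers 1 was higher and 6 lower, while with totals alone 1 was called lower. Beside these counts, 28.2% of all genes tested in WAT were higher and 24.2% lower. Of 11 T, B and NK cell markers tested 1 was higher, and of 8 neutrophil and mast cell markers tested 5. The log2 changes of these 8 ran from -2.11 to 3.61, and the 3 with the smallest p were the mast cell genes Mcpt4, Cma1 and Tpsb2. S100a8 and S100a9 had a WT library below the level of the count filter, and of the other 6 tested 4 were higher. Ly6g and Mpo had 0 reads in each WT library and some reads in cKO. No macrophage, fibroblast or adipocyte marker was at 0 in a whole group. The part of these cell types in the rise of the cell cycle genes was not tested. Without cKO replicate 2 the median log2 change of the 40 genes was 2.21, and without cKO replicate 3 it was 1.78.

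**Figure D4:**
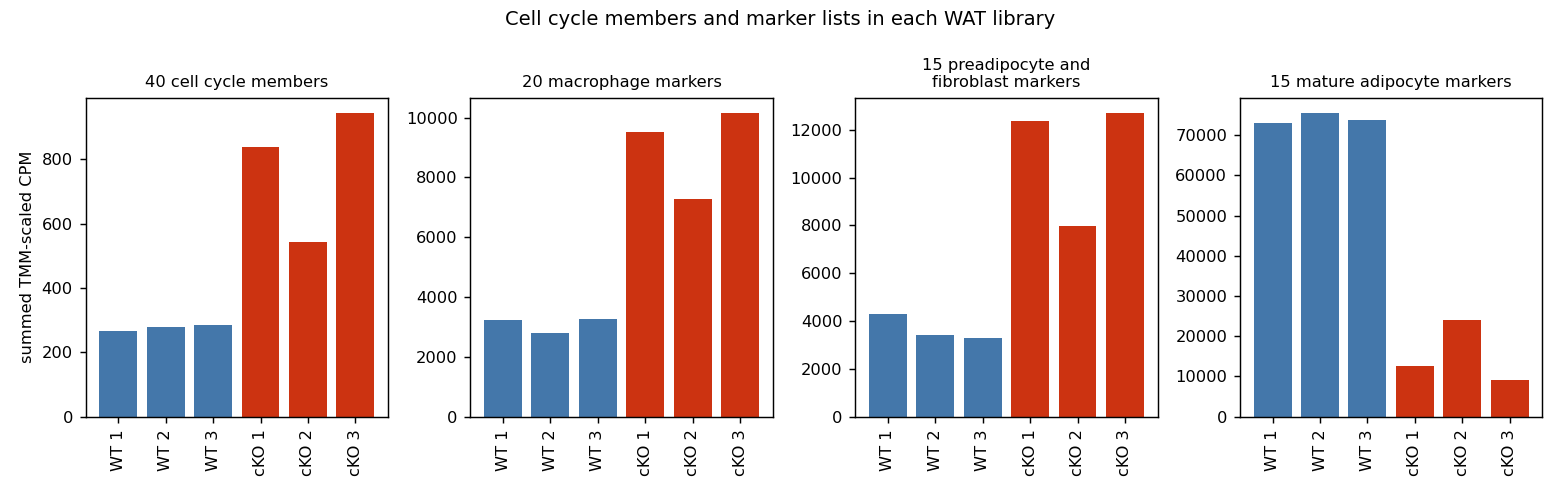
Summed TMM-scaled CPM (linear axes that start at 0) of the 40 cell cycle genes and of 3 marker lists in each WAT library, WT in blue and cKO in red. In cKO replicate 2 the cell cycle, macrophage and fibroblast sums are the lowest of the 3 cKO libraries and the adipocyte sum, 23913 CPM, is the highest.

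Genes of the same machinery outside the 40 were mostly called higher too. Of 52 further genes of mitotic kinesins, kinetochores and condensin, 45 were higher in cKO WAT and 2 lower (edgeR, adjusted p under 0.05), with a median log2 change of 1.94. Of all genes tested in WAT 28.2% were higher and 24.2% lower, with a median of 0.12. In 20 of the 52 a WT library lay below the level of the count filter, and of the other 32 genes 26 were higher and 2 lower. The 3 with the smallest p were the mitotic kinase Melk (3.50, SE 0.35), the condensin core subunit Smc4 (1.84, SE 0.20) and the passenger complex subunit Cdca8, borealin (2.04, SE 0.24). The lower ones, named after their values were seen, were Pttg1, securin (-1.08, SE 0.21), and the kinetochore gene Zwint (-0.71, SE 0.15). With totals alone neither was called. Of 52 further replication genes 36 were higher and 4 lower, with a median of 1.02. In 6 of these a WT library lay below the level of the filter, and of the other 46 genes 30 were higher and 4 lower. Without cKO replicate 1, 23 of the 52 were called higher. Brca1, a repair gene that is induced in S phase, changed by 3.60 (SE 0.36). The lower ones, also named after their values were seen, were the helicase Recql4 (-2.66, SE 0.26), the polymerase delta subunit Pold2 (-1.36, SE 0.12), Rpa1 (-0.50, SE 0.11) and Gins4 (-0.44, SE 0.13), and the last 2 turned to 0.18 and 0.24 with totals alone. Recql4 had 18.5, 16.4 and 14.5 CPM in WT and 2.50, 1.89 and 3.38 CPM in cKO, with no overlap between the groups.

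Upstream of the 40, the D-type cyclins that carry growth signals to the cell cycle were split. Ccnd1 had 32.0, 31.3 and 36.3 CPM in WT and 92.9, 64.5 and 120 CPM in cKO (log2 change 1.48, SE 0.23), and Ccnd2 changed by 0.75 (SE 0.14). Ccnd3, which is known for its part in adipocyte differentiation, fell from 258, 312 and 281 CPM to 99.1, 123 and 94.2 CPM (log2 change -1.43, SE 0.15). Of their kinases Cdk6 rose (1.35, SE 0.22), and Cdk4 (0.40, edgeR adjusted p 0.163) and Cdk2 (0.00, edgeR adjusted p 0.985) did not pass. In all, of 10 G1 cyclin and kinase genes 3 were higher and 1 lower (30% and 10%, beside 28.2% and 24.2% of all genes), a share higher near the background. With totals alone 9 were called higher, where 8838 of the 16293 genes tested were.

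Of 20 transcription regulators of the cell cycle 10 were higher and 0 lower in WAT (50% and 0%, beside 28.2% and 24.2% of all genes). With totals alone 16 were higher, where 8838 of the 16293 genes tested were. E2f8 and Mybl1 had a WT library below the level of the filter, and of the other 18 genes 8 were higher. Foxm1 had 3.48, 2.00 and 3.06 CPM in WT and 13.7, 9.36 and 17.2 CPM in cKO (log2 change 2.23, SE 0.32), and Mybl2, which encodes B-Myb, changed by 1.86 (SE 0.32). Both encode known activators of mitotic genes. The repressive E2F gene E2f8 changed by 2.70 (SE 0.50), the pocket protein gene Rbl1 by 1.40 (SE 0.22) and Myc by 1.32 (SE 0.23). The other pocket protein genes, Rb1 (-0.21, edgeR adjusted p 0.384) and Rbl2 (0.06, edgeR adjusted p 0.779), did not pass. Among 17 CDK inhibitors and other brakes 7 were higher and 3 lower (41.2% and 17.6%, beside 28.2% and 24.2% of all genes), and without WT replicate 1 or without WT replicate 3 the count higher was 3. Of these 17, Cdkn2a and Chek1 had a WT library below the level of the filter. The stress-induced Gadd45a changed by 2.79 (SE 0.34) and the checkpoint kinase Chek1 by 2.71 (SE 0.43). The p16 and p19ARF gene Cdkn2a had 0, 4 and 0 reads in WT and 24, 12 and 34 reads in cKO. The 3 lower ones were Cdkn1c, p57 (-0.71, SE 0.17), Cdkn2c, p18 (-0.85, SE 0.21), and Cdkn2d, p19INK4D (-0.61, SE 0.15), none of which was called lower with totals alone, where Cdkn2d stood at 0.075. Cdkn1a, p21, had 258, 154 and 184 CPM in WT and 191, 311 and 159 CPM in cKO, overlapping groups with no call (edgeR adjusted p 0.69).

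Cultured adipocytes of KO genotype differed little from WT in these genes. Of the 40, 3 were higher and 0 lower (edgeR, adjusted p under 0.05 over 12587 genes), where 8.94% of all genes tested were higher and 10.6% lower, so the count of 3 is near the background. The 3 were Cdk1, Cenpe and Ncapg, and no S-phase gene passed. The median log2 change was 0.20 for the mitotic genes, 0.09 for the S-phase genes and -0.02 for all genes. At an unadjusted edgeR p under 0.05, 7 of the 40 were higher and 2 lower. The share of all genes at that threshold was not taken, so this count cannot be set against a background. KO libraries lay clear above WT libraries in 9 of the 40 and clear below in 2, beside 18% and 18.8% of all genes. Summed over the 40, the WT cultures held 1111, 1207 and 1154 CPM and the KO cultures 1289, 1332 and 1190 CPM, so that the sums overlapped.

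Cdk1 had 33.4, 30.7 and 31.2 CPM in WT cultures and 45.6, 42.6 and 38.6 CPM in KO cultures, a log2 change of 0.41 (SE 0.12, edgeR adjusted p 0.0197). Cenpe had 14.7, 16 and 15.9 CPM in WT and 19.3, 22.6 and 21.6 CPM in KO (0.45, SE 0.14, edgeR adjusted p 0.0275), and Ncapg 8.53, 10.8 and 13.2 CPM in WT and 14.0, 16.4 and 15 CPM in KO (0.49, SE 0.17, edgeR adjusted p 0.0453). All 3 groups of KO libraries are clear of the WT libraries, but each call was lost in several fits without 1 library. In those fits the log2 change was 0.36 to 0.40 for Cdk1, 0.40 to 0.49 for Cenpe and 0.35 to 0.54 for Ncapg. Cdk1 was no longer called without WT replicate 2, KO replicate 1 or KO replicate 2 (edgeR adjusted p 0.071 to 0.094), and Cenpe not without WT replicate 1 or 2 or KO replicate 2 or 3 (edgeR adjusted p 0.066 to 0.12). Ncapg kept its call only without WT replicate 3 (edgeR adjusted p otherwise 0.055 to 0.209). Without WT replicate 2 or without KO replicate 2 none of the 40 was called higher. Rrm2 went the other way from tissue, with 34.5, 40.8 and 42.9 CPM in WT and 31.3, 29.2 and 33.5 CPM in KO, a log2 difference of -0.33 (SE 0.12, edgeR adjusted p 0.0633) that did not pass. It did pass by totals alone (-0.39, edgeR adjusted p 0.029) and without WT replicate 1 (-0.41, edgeR adjusted p 0.04975). It also passed with the trend of length and GC content removed (-0.52, edgeR adjusted p 0.00097) and with a block for replicate number (-0.33, edgeR adjusted p 0.018). E2f1 was likewise lower without passing, at 17.9, 16.1 and 14.3 CPM in WT and 14.2, 13.2 and 9.69 CPM in KO (-0.39, SE 0.17, edgeR adjusted p 0.098). With the block E2f1 passed (edgeR adjusted p 0.032). Mki67, at 71.2, 85.2 and 86.4 CPM in WT and 84.4, 103 and 90.2 CPM in KO, and Top2a, at 59.9, 68.4 and 77.8 CPM in WT and 75.3, 100 and 81.9 CPM in KO, overlapped between the genotypes. Without WT replicate 3, or without KO replicate 1, Top2a was called higher (edgeR adjusted p 0.017 and 0.049).

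In culture 8.94% of all genes were higher and 10.6% lower, and the other lists varied around these shares. Of the further mitotic genes 2 of 52 were higher (3.85%), Pttg1 (0.41, SE 0.12) and Spc25 (0.49, SE 0.16), and 0 lower, a count that ran from 0 (without WT replicate 2 or KO replicate 1) to 6 (without WT replicate 3). Of the further replication genes 9 of 52 were higher (17.3%) and 0 lower, with the clamp loader subunit Rfc4 (0.94, SE 0.16) and the origin recognition subunit Orc5 (0.66, SE 0.13) at the smallest p, and without WT replicate 2 the count was 5. Cdkn2c rose by 0.66 (SE 0.11) and Cdkn1a fell by 0.60 on the log2 scale (SE 0.12), and Ccnd1 (-0.55, SE 0.13) and Myc (-0.39, SE 0.12) were lower, against their rise in WAT. The macrophage markers without Lpl and Cd9 summed to between 5280 and 5919 CPM in WT cultures and to between 3693 and 4255 CPM in KO cultures, with 8 of 19 tested lower (42.1%). The mature adipocyte markers summed to between 21100 and 23311 CPM in WT and to between 27455 and 32311 CPM in KO, with 5 of 14 higher (35.7%) and 2 lower, and the preadipocyte and fibroblast markers to between 18266 and 22065 CPM in WT and to between 15077 and 17243 CPM in KO, with 2 of 14 higher and 5 lower (35.7%). Without WT replicate 2 the counts of lower macrophage, higher adipocyte and lower fibroblast markers were 5, 3 and 1. Of 10 endothelial markers 3 were lower (30%), and Cd3d, Cd3g, Cd8a, Ms4a1 and Ncr1 had 0 reads in each culture library. The part of these cell types in the culture values was not tested.

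**Figure D5:**
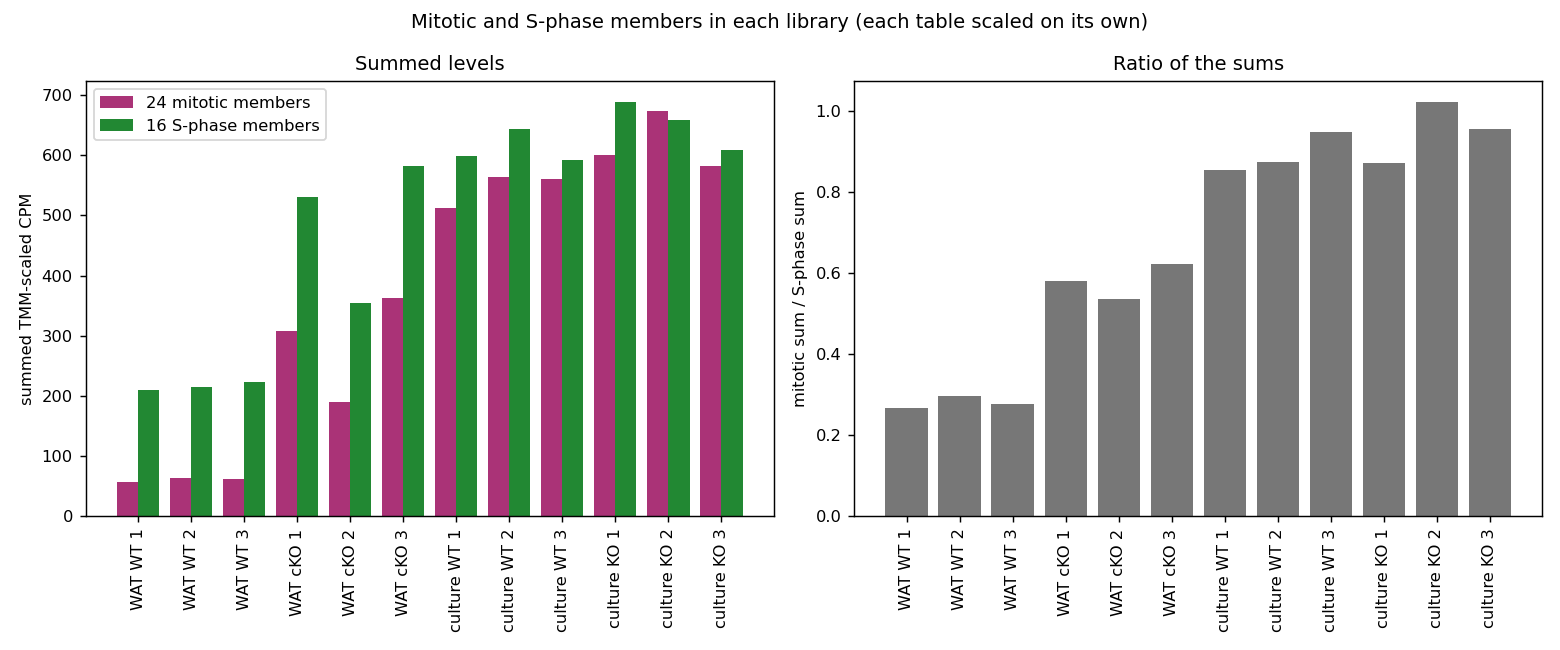
Summed TMM-scaled CPM of the 24 mitotic and 16 S-phase genes in each of the 12 libraries (left, linear axis from 0) and the ratio of the 2 sums (right), with tissue and culture tables scaled separately. The ratio is 0.267 to 0.295 in WT tissue, 0.536 to 0.622 in cKO tissue and 0.854 to 1.02 in culture.

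In summed level, the cultures of either genotype stood above WAT, although the tables were scaled separately and the sums can be set side by side only as a description. The mean level in WT cultures was above that in WT tissue for 39 of the 40 genes, Cdc6 being the exception at 0.495 times, with a median ratio of 10.9 for the mitotic genes and 2.97 for the S-phase genes. Against cKO tissue the median ratios were 1.94 and 1.22. The same count and ratios were not taken over all genes, so whether these genes stand apart from other genes here is not shown. Mki67, for example, was 45.4 times as high in WT cultures as in WT tissue and 5.53 times as high as in cKO tissue, and Aurkb 4.60 times and 0.758 times. The ratio of mitotic to S-phase sums rose in the same order, from 0.267 to 0.295 in WT tissue over 0.536 to 0.622 in cKO tissue to 0.854 to 0.947 in WT cultures and 0.871 to 1.02 in KO cultures.

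Whether the genotype difference itself differed between tissue and culture was tested as an interaction in 1 fit over the 12 libraries and 14463 genes. The difference was larger in WAT for 33 of the 40 genes and smaller for 0 (edgeR, adjusted p under 0.05), where 27.7% of all genes tested were larger and 21.1% smaller. These were all 24 mitotic genes, with a median difference of 2.42 on the log2 scale, and 9 of the 16 S-phase genes, with a median over the 16 of 1.34, and the median of all genes was 0.22. With totals alone 15 of the 16 S-phase genes were called. Ncapg (4.07, SE 0.74), Ccnb1 (3.08, SE 0.29) and Bub1 (3.02, SE 0.40) had the largest differences. Of the 33, Bub1, Kif11, Cenpe and Ncapg had a WT tissue library below the level of the WAT count filter. Over the alternatives the Ncapg difference ran from 3.41 to 8.31, so its rank and size rest on few WT reads. Rrm2 had the largest among the S-phase genes (2.83, SE 0.34, edgeR adjusted p 4.6e-05), since it was higher in cKO tissue and, without passing, lower in KO cultures. Cdk1, which like Cenpe and Ncapg was called higher in both settings, had the smallest difference that passed (0.95, SE 0.33, edgeR adjusted p 0.0307), and that call was lost without any 1 of 8 libraries, WT replicate 1 or 3 or cKO replicate 3 of tissue, or WT replicate 1, 2 or 3 or KO replicate 2 or 3 of culture (edgeR adjusted p 0.050 to 0.072). The genes without a call were Mcm7, Rrm1, Tyms, Cdc45, Cdc6, Ccne1 and Ccne2. Without cKO replicate 2 of tissue, Rrm1 (0.79) and Tyms (0.56) were called as well. For Mcm7 the difference was 0.20 (SE 0.18, edgeR adjusted p 0.383), so its small WAT rise was not separable from the 0.29 (SE 0.12, edgeR adjusted p 0.0932) seen in culture.

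Shared reads may limit some of these values. In the RefSeq annotation 12 of the 40 overlap another gene of the WAT table, namely Ccna2, Aurka, Kif20a, Ncapg, Nusap1, Prc1, Cdc20, Mcm7, Gins2, Cdc45, Ccne2 and E2f1. Without the strand setting, reads in the shared stretches cannot be divided, and the extent of these stretches was not measured. For the other 28 no such overlap was found. With each numbered copy summed with its parent gene, an alternative chosen after seeing the data, the median log2 change of the 40 was 1.97 in WAT.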

How the data were processed

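The RNA was isolated with TRIzol and sequenced from MGIEasy mRNA libraries, per the labels' protocols. The authors deposited whole-number read counts per gene, 1 table for WAT and 1 for cultures. FastQC 0.11.2, cutadapt 1.11, HISAT2 2.1.0 and GRCm38 are named in the submitters' processing notes, and for the counter, the annotation and the use of strand the sources used here give nothing. Counts were tested with edgeR 4.0.16 in R 4.3.3 (filterByExpr with a minimum count of 10, TMM, quasi-likelihood test, Benjamini-Hochberg over all genes tested, threshold 0.05), each table on its own and, for the interaction, shared symbols over 12 libraries. The scripts were tested on simulated data. The genes and lists were chosen with earlier results of these data known. All 40 genes are described. Of other lists the 3 genes with the smallest p in WAT and the 2 in culture may be named, and any gene of the G1, regulator and inhibitor lists. Alternatives were RLE factors, totals alone, no filter, a block for replicate number, leaving out 1 library at a time, DESeq2 1.42.0, limma 3.58.1 voom, a length and GC correction, 1 fit over 4 groups, a 2-fold minimum and, chosen after seeing the data, numbered copies summed. Depth limits mainly Ncapg, Cenpe, Bub1 and Ccne2 in WT tissue, and limits from a count of 0 cover counting error only. No 2 libraries of a table agreed within sampling noise, the lowest chi-square per degree of freedom being 29.6 in WAT and 4.97 in culture.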

Additional observations from a re-analysis of the deposited data

Results flagged for a closer look

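For 33 of the 40 genes the genotype difference was larger in tissue than in culture by the interaction test (edgeR, adjusted p under 0.05). The values that follow are the WAT log2 change minus the culture log2 change as estimated in that joint fit. They can differ slightly from a subtraction of the changes of the separate fits. For Bub1, Kif11, Cenpe and Ncapg a WT tissue library lay below the level of the WAT count filter, so their values rest on few WT reads. Among cyclins and kinases of mitosis it was 3.08 for Ccnb1, 2.24 for Ccnb2, 2.49 for Ccna2, 0.95 for Cdk1, 2.23 for Plk1, 1.38 for Aurka and 2.71 for Aurkb. Among checkpoint, kinetochore and passenger genes it was 3.02 for Bub1, 1.72 for Bub1b, 2.34 for Birc5, 2.21 for Cenpa, 2.85 for Cenpe and 2.32 for Cenpf. Chromosome and spindle genes had differences of 4.07 for Ncapg, 2.87 for Mki67, 2.50 for Top2a, 2.54 for Nusap1, 2.77 for Prc1 and 2.57 for Tpx2. The kinesins had 2.82 for Kif11, 1.94 for Kif20a and 2.32 for Kif23, and the anaphase genes 2.00 for Ube2c and 1.88 for Cdc20. The S-phase genes had 2.83 for Rrm2, 2.02 for Mcm6, 1.75 for Mcm4, 1.56 for Mcm5, 1.48 for Gins2, 1.43 for Mcm2, 1.40 for Mcm3, 1.29 for E2f1 and 1.26 for Pcna. The tissue and culture libraries also differ in their marker sums, which do not separate the number of cells from the RNA per cell. The part of that difference in these 33 values was not tested.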

How the results depend on the processing

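Of the 36 genes called higher in WAT, 32 kept their call and direction under every alternative other than the 2-fold minimum, the exceptions being Aurka, Mcm7, Rrm1 and Tyms, and of the 33 interaction calls 32 did, the exception being Cdk1. The 2-fold minimum also left 32 WAT calls, without E2f1, Mcm7, Rrm1 and Tyms. Of the 4 genes without a WAT call, Ccne1 and Ccne2 gained one under some alternatives. None of the 3 culture calls was kept throughout. The culture count of 3 higher was 5 with the replicate block, 5 with length and GC trend removed, 0 in 1 fit over all 4 groups and 0 at a 2-fold minimum, and from 0 to 4 with 1 library left out. For mitotic genes alone it was 0 in the fit over all groups, 0 at a 2-fold minimum and from 0 to 4 with 1 library left out. For S-phase genes, with 0 called, it was 1 with the block and 1 with length and GC removed. The culture count of 0 lower was 1 by library totals alone, 2 with the block, 1 with length and GC removed and from 0 to 1 with 1 library left out. The interaction count of 9 S-phase genes was 15 by totals alone. Totals alone also turned the WAT log2 changes of Fam50a to 0.089, Cdkn2d to 0.075, Gins4 to 0.24 and Rpa1 to 0.18, and the interaction of Rfc4 to 0.0054. Beyond these scalings the cause of the changes was not tested. Over all genes the culture fit called 1125 higher and 1334 lower, and with the replicate block 1816 and 2008. The fit over 4 groups called 58 and 88, and the fits without 1 library from 399 to 1715 higher. Same-numbered libraries had deviation correlations of -0.35, 0.02 and -0.23 in WAT and 0.22, 0.04 and 0.27 in culture. Of 6 libraries, 1 in WAT and 5 in culture correlated best with their own number. The main tests did not take the numbers to pair the samples, so a replicate structure in culture enters only through the block. Among the 40, with the replicate block Aurka, Mcm7 and Tyms lost their WAT calls (edgeR adjusted p 0.051, 0.053 and 0.067) and Cdk1 its interaction call (edgeR adjusted p 0.090), Rrm1 gained one, and in culture Top2a and Mcm7 were called higher and Rrm2 and E2f1 lower. Transcript length and GC were known for 87.0% of genes in WAT.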
